A study of Mus musculus with 23 samples.

Results

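Ccr7, S1pr1, Klf2, Cd44 and Cd69 are the genes that T cells use to enter, leave or stay in lymphoid tissue. They are 5 of the 18193 genes that a probe set of the array names alone. They were chosen by name, with earlier results of these data known. All probe sets annotated to a member were taken, which gave 8 of the 45101 probe sets: 4 for Cd44 and 1 for each of the others. Of these, 7 passed the filter on dim values, a group mean above the median of the whole table (6.27 on the log2 scale, an intensity of 77.0). The Cd44 probe set 1443265_at did not: its log2 intensity lay between 3.47 and 4.11 on the 23 arrays, and it was not tested.

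A circulating T cell enters a lymph node through high endothelial venules with the help of Ccr7, the receptor for the chemokines CCL19 and CCL21. It leaves again through S1pr1, the receptor that reads the sphingosine-1-phosphate gradient between tissue and lymph. Klf2, a zinc finger transcription factor of resting T cells, drives transcription of S1pr1 and of other trafficking genes, and falls when the antigen receptor is triggered. Cd69 is an early activation antigen and a marker of tissue residence, and its protein binds S1pr1 and removes it from the cell surface. Cd44 is an adhesion receptor for hyaluronan that is kept high on antigen-experienced T cells.

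The arrays compared regulatory T cells (Treg) from several origins with partner cells, in 9 groups. In C57BL/6-Foxp3/GFP mice, GFP+ cells (LP Treg, 2 arrays) and GFP- cells (LP Tconv, 2 arrays) came from the small intestinal lamina propria, and the GFP+ lymph node cells were split into CD103+Klrg1+, CD103+Klrg1- and CD103-Klrg1- cells (LN, 2 arrays each); these arrays pooled 4 to 6 mice. The Homeo groups started as Foxp3-GFP- CD4+ T cells of BDC2.5 NOD mice, which carry a transgenic T cell receptor. They were injected into NOD RAG-/- hosts, which lack lymphocytes of their own, and GFP+ cells (Homeo Foxp3+, 3 arrays) and GFP- cells (Homeo Foxp3-, 3 arrays) were recovered from spleen and lymph nodes after 14 days from pools of 2 to 3 mice. The DEC groups started as CD4+CD25- cells of HA6.5/Thy1.2/RAG-/-/Balb/c mice, which were placed in Balb/c hosts given 1 injection of 50 ng of the DEC-HA peptide. CD25+ cells (DEC CD25+, 3 arrays) and CD25- cells (DEC CD25-, 4 arrays) were sorted from spleen and lymph nodes 3 weeks later from pools of 5 to 10 mice. All mice were 6 to 10 weeks old and labelled male, and all cells were sorted as CD3+ B220- CD8a- CD11b/c-, so neither the sorted cells nor their controls included B cells, CD8 T cells or myeloid cells by gate.

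The DEC arrays go against 1 label and stand apart. Xist, the RNA of the inactive X chromosome, had a log2 intensity of 11.85 to 13.25 on the 7 DEC arrays, against 6.47 to 7.67 on the other 16, although all mice are labelled male. DEC CD25- replicates 3 and 4 were dim, with median intensities of 68.5 and 63.7 where the other 21 arrays had 75.5 to 81.1. On replicate 3 the Gapdh signal was 6.59 log2 units higher at the 3′ end than at the 5′ end, against 1.63 to 3.92 on the other arrays. The DEC cells were sorted on CD25, not on Foxp3: Foxp3 averaged a log2 intensity of 10.47 in DEC CD25+ and 7.97 in DEC CD25-, against 4.65 in LP Tconv and 4.76 in Homeo Foxp3-. T cell markers were present throughout, Cd3e at a mean log2 intensity of 11.08 to 11.73 in the 9 groups. These are bulk samples, so fewer cells of a type and less RNA per cell cannot be told apart. Replicates are separate pools of mice by the labels, with 2 to 4 pools a group. The p-values of the main fit rest on the spread between pools within groups, with 1 estimate per probe set shared by all 9 groups. They do not use the replicate numbers.

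**Figure D1:**
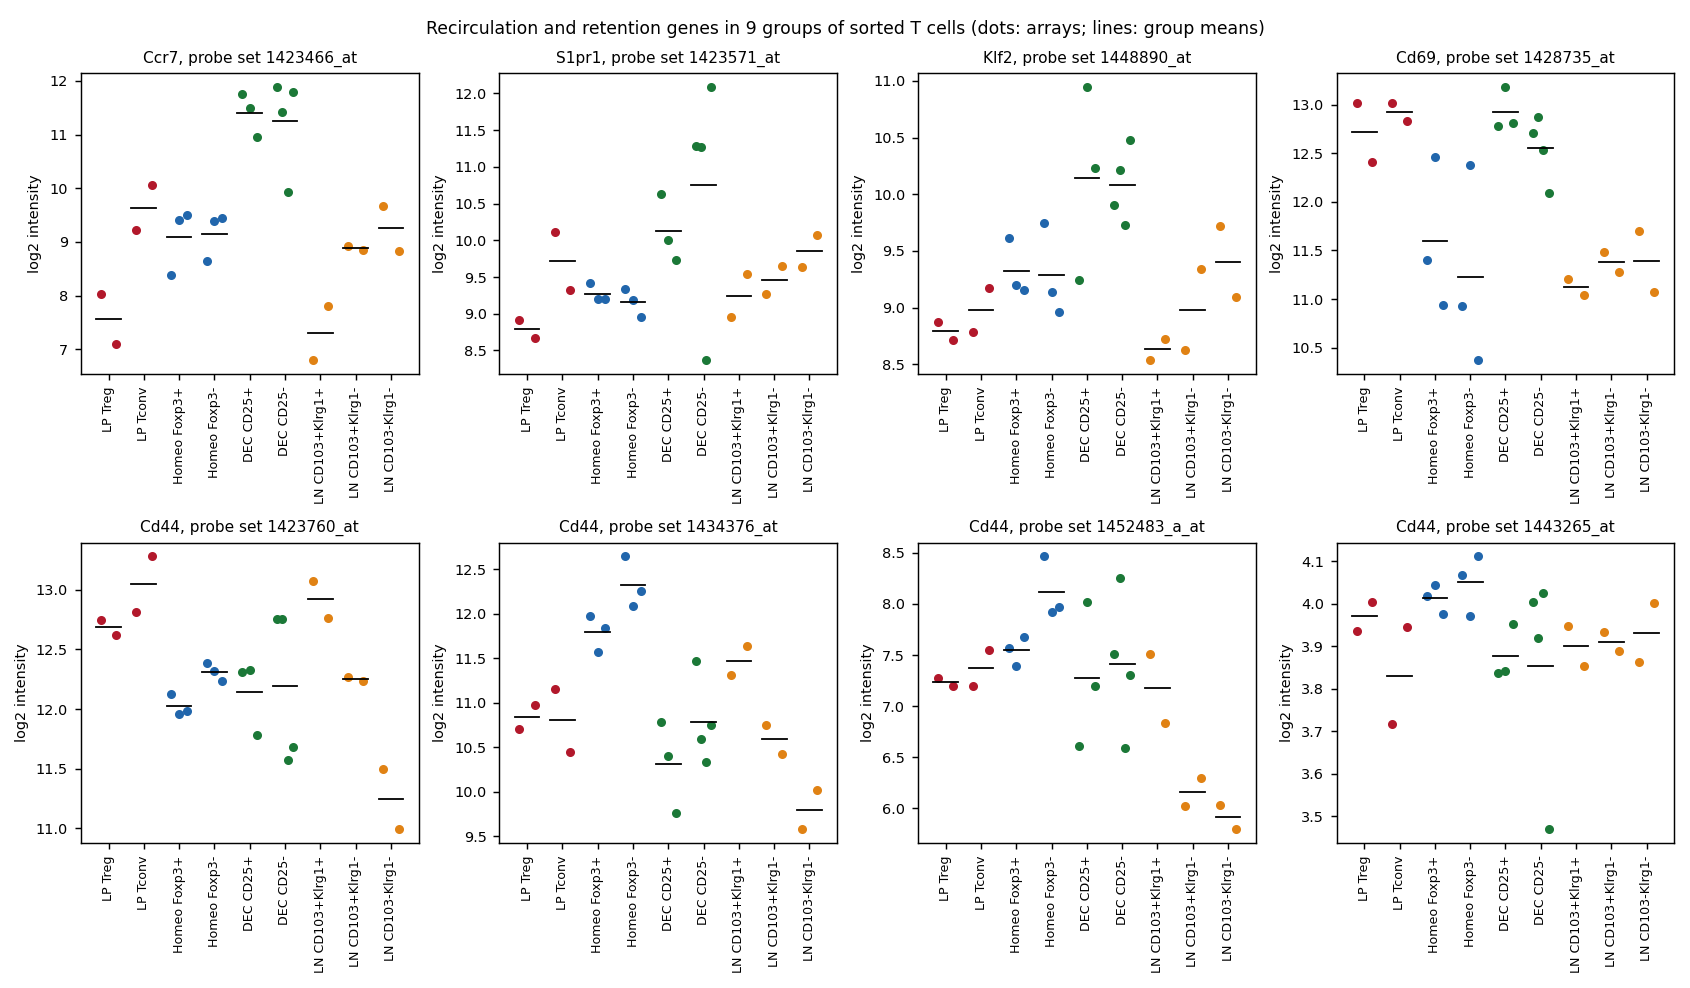
Log2 intensity of the 8 probe sets of the 5 genes, 1 panel each, in the 9 groups; each dot is 1 array and each line a group mean. Ccr7 lay at 9.94 to 11.89 on the 7 DEC arrays and at 6.80 to 8.03 on the arrays of LP Treg and LN CD103+Klrg1+ cells, while the Cd44 probe set 1443265_at stayed between 3.47 and 4.11 on all arrays.

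Among the 63 member tests in the 9 comparisons within a system or a strain, 3 passed an adjusted p of 0.05 in limma, and all 3 were of Cd44. LN CD103+Klrg1+ against LN CD103-Klrg1- cells gave 2 calls among 7 probe sets, both higher, where 1.77% of the 26492 probe sets tested were called and 1.23% were called higher. LP Treg against LN CD103-Klrg1- cells gave 1 call, higher in LP Treg, with 5.02% of all probe sets called and 2.53% called higher. The other 7 comparisons gave 0 member calls in limma. With no adjustment, limma gave a p under 0.05 for 1 of 7 member probe sets in LP Treg against LP Tconv. Of all 26492 probe sets, 2178 had such an unadjusted p there, and 2.2% were called after adjustment. In the same order these were 0, 1664 and 1.33% in Homeo Foxp3+ against Homeo Foxp3-. They were 0, 4170 and 0.442% in DEC CD25+ against DEC CD25-. LN CD103+Klrg1- against LN CD103-Klrg1- gave 2, 467 and 0.0679%. LN CD103+Klrg1+ against LN CD103+Klrg1- gave 3, 878 and 0.396%. LP Treg gave 3, 3842 and 3.17% against LN CD103+Klrg1-, and 1, 3121 and 2.29% against LN CD103+Klrg1+. The 3 comparisons of LP Treg with lymph node cells share the LP Treg arrays, and the lymph node comparisons share theirs in pairs.

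**Figure D2:**
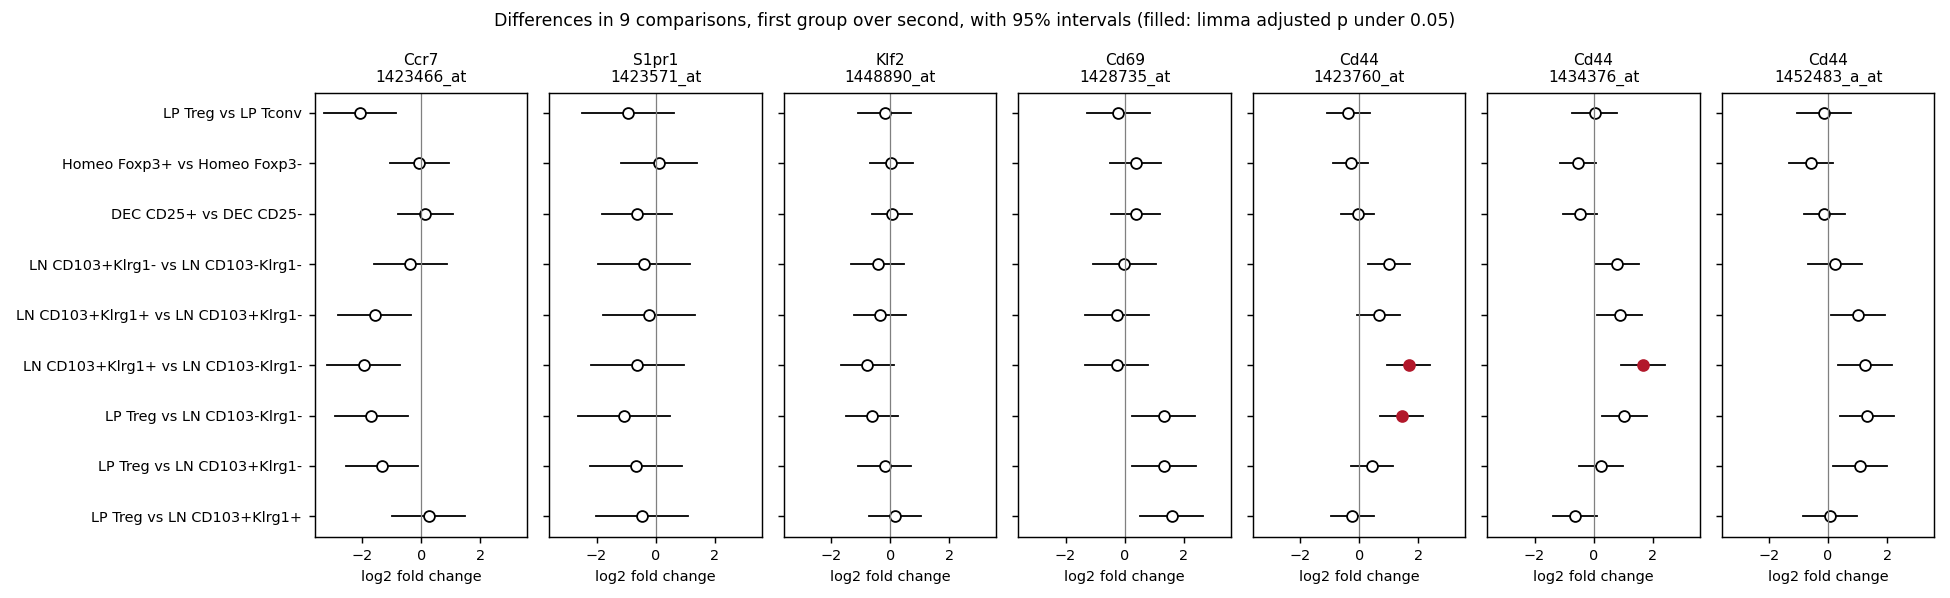
Log2 fold changes of the 7 tested member probe sets in the 9 comparisons, the first-named group over the second, with 95% intervals from limma; filled points passed an adjusted p of 0.05. The filled points are Cd44 in LN CD103+Klrg1+ over LN CD103-Klrg1- (both at 1.67) and in LP Treg over LN CD103-Klrg1- (1.44), and the Ccr7 intervals lie below 0 in 5 of the 9 comparisons.

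Ccr7, the lymph node entry receptor, had its lowest levels in LP Treg and in LN CD103+Klrg1+ cells. Its log2 intensity was 8.03 and 7.09 in LP Treg, against 9.21 and 10.06 in LP Tconv. Both Treg arrays lay below both partner arrays. The difference was -2.08 ± 0.58 on the log2 scale (SE; 95% interval -3.30 to -0.85), 4.21 times lower in LP Treg, with an adjusted p of 0.0877 in limma, so it missed the threshold. It had an adjusted p of 0.0177 when both dim arrays, which bear on it only through the shared estimate of the spread, were left out, and 0.0177 to 0.606 over the 13 alternatives.

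Among the lymph node subsets, Ccr7 had log2 intensities of 6.80 and 7.81 in CD103+Klrg1+ cells, 8.93 and 8.84 in CD103+Klrg1- cells, and 9.68 and 8.83 in CD103-Klrg1- cells. The CD103+Klrg1+ arrays were below all 4 others. CD103+Klrg1+ differed from CD103-Klrg1- cells by -1.95 ± 0.58 (adjusted p = 0.149) and from CD103+Klrg1- cells by -1.58 ± 0.58 (adjusted p = 0.781). CD103+Klrg1- cells differed from CD103-Klrg1- cells by -0.37 ± 0.58. The first of these passed with array weights (adjusted p = 0.00966) and without both dim arrays (adjusted p = 0.0340), and its adjusted p ran up to 1.00 over the alternatives.

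LP Treg set against the lymph node Treg subsets gave Ccr7 differences of -1.69 ± 0.58 from CD103-Klrg1- cells (adjusted p = 0.120), -1.32 ± 0.58 from CD103+Klrg1- cells (adjusted p = 0.295) and 0.25 ± 0.58 from CD103+Klrg1+ cells. LP Treg arrays were thus below the CD103-Klrg1- and CD103+Klrg1- arrays and overlapped the CD103+Klrg1+ arrays. The difference from CD103-Klrg1- cells passed with array weights (adjusted p = 0.0186) and without both dim arrays (adjusted p = 0.0313), and its adjusted p ran up to 0.529 over the alternatives.

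In both transfer systems Ccr7 differed between the Foxp3+ or CD25+ cells and their partners by less than its standard error. Its log2 intensity was 8.38, 9.41 and 9.50 in Homeo Foxp3+, against 8.64, 9.39 and 9.44 in Homeo Foxp3-. In DEC CD25+ it was 11.76, 11.49 and 10.95, against 11.89, 11.42, 9.94 and 11.79 in DEC CD25-, where the lowest value came from the dim replicate 3. The differences were -0.06 ± 0.48 in Homeo and 0.14 ± 0.45 in DEC cells, with 95% intervals of -1.06 to 0.94 in Homeo and -0.80 to 1.08 in DEC cells. Over all probe sets the median DEC difference was 0.17.

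The Ccr7 difference between partners was itself set against that of the other systems. The LP difference minus the Homeo difference was -2.01 ± 0.75 (adjusted p = 0.571), and the LP difference minus the DEC difference was -2.21 ± 0.73 (adjusted p = 0.264). Over the 7 probe sets and 3 such differences limma called 0 of 21, and these 2 Ccr7 values were those with an unadjusted p under 0.05. Over all probe sets, 0.623% were called for LP minus Homeo, 0.917% for LP minus DEC and 0.264% for Homeo minus DEC.

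Ccr7 was higher on average in the DEC cells than in every other group, with 1 overlap of arrays: DEC CD25- replicate 3 (9.94) lay below LP Tconv replicate 2 (10.06). All 14 pairs of a DEC group with a group of another system were called higher in DEC cells, by 1.62 to 4.09 on the log2 scale, with adjusted p-values of 2.1e-05 to 0.0307. Without both dim arrays all 14 were called again, at 1.76 to 4.35. With each array of a pair left out in turn, 10 of the 14 remained called every time. The other 4 were both pairs with LP Tconv, where the adjusted p reached 0.191 for DEC CD25+ and 0.192 for DEC CD25- without LP Tconv replicate 1, and both pairs with LN CD103-Klrg1- cells, where it reached 0.146 and 0.135 without LN CD103-Klrg1- replicate 2. Over the 14 pairs 8.03% of all tests called a probe set higher in DEC cells (5.02% to 14.3% in single pairs), and 12.6% did so without both dim arrays (8.16% to 20.1%). The mouse strain, the host, the transgenic receptor, the sort and the Xist level move with the system, so their parts in this difference cannot be told apart. The mean of the myeloid and dendritic list was 7.53 in DEC CD25+ and 6.69 in DEC CD25- on the log2 scale. It was 6.08 to 6.34 in the lamina propria and lymph node groups, 7.77 in Homeo Foxp3+ and 8.01 in Homeo Foxp3-. The part of such cells in the Ccr7 difference was not tested.

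The order of the Ccr7 group means on the log2 scale ran from DEC CD25+ (11.40 ± 0.41, SD, n = 3) and DEC CD25- (11.26 ± 0.90, n = 4) through LP Tconv (9.64 ± 0.60, n = 2), LN CD103-Klrg1- (9.25 ± 0.60, n = 2), Homeo Foxp3- (9.16 ± 0.45, n = 3), Homeo Foxp3+ (9.10 ± 0.62, n = 3) and LN CD103+Klrg1- (8.89 ± 0.06, n = 2) to LP Treg (7.56 ± 0.67, n = 2) and LN CD103+Klrg1+ (7.31 ± 0.72, n = 2). Only 2 steps between neighbours had a 95% interval that left out 0. DEC CD25- exceeded LP Tconv by 1.62 (0.56 to 2.69), and LN CD103+Klrg1- exceeded LP Treg by 1.32 (0.10 to 2.55). Outside the DEC groups, Ccr7 was called in LP Tconv over LN CD103+Klrg1+ cells (2.33, adjusted p = 0.0231, 5.58% of all called) and in Homeo Foxp3+ over LN CD103+Klrg1+ cells (1.79, adjusted p = 0.0372, 11.5%). It was also called lower in LN CD103+Klrg1+ than in Homeo Foxp3- cells (-1.85, adjusted p = 0.0295, 12.6%) and lower in LP Treg than in Homeo Foxp3- cells (-1.59, adjusted p = 0.0486, 16.7%). Each of these 4 calls was lost when single arrays were left out, with adjusted p-values up to 0.262 (without LP Tconv replicate 2), 0.331 and 0.304 (both without LN CD103+Klrg1+ replicate 1) and 0.307 (without LP Treg replicate 2).

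S1pr1, the egress receptor, had its lowest group mean in LP Treg and its highest in the DEC groups. Its log2 intensity was 8.92 and 8.67 in LP Treg, against 10.11 and 9.32 in LP Tconv. The arrays did not overlap, but the difference of -0.92 ± 0.74 was little larger than its standard error (adjusted p = 1.00 in limma). That standard error rests on a spread shared by all 9 groups, not on the LP arrays alone. The SD of S1pr1 was 1.64 in DEC CD25-, against 0.18 in LP Treg and 0.56 in LP Tconv. Without both dim DEC CD25- arrays, the standard error between groups of 2 arrays was 0.30. In the lymph node subsets S1pr1 had 8.95 and 9.53 in CD103+Klrg1+ cells, 9.27 and 9.65 in CD103+Klrg1- cells and 9.64 and 10.08 in CD103-Klrg1- cells. The CD103+Klrg1+ arrays were below the CD103-Klrg1- arrays, by -0.62 ± 0.74 on average (adjusted p = 1.00), and the CD103+Klrg1- arrays overlapped both.

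Both LP Treg arrays lay below all 6 lymph node arrays. LP Treg differed from LN CD103-Klrg1- cells by -1.07 ± 0.74 in S1pr1 (adjusted p = 0.567), from CD103+Klrg1- cells by -0.67 ± 0.74 and from CD103+Klrg1+ cells by -0.45 ± 0.74. The first of these passed with array weights (adjusted p = 0.0465) and without both dim arrays (adjusted p = 0.0327), where its standard error was 0.30; over the alternatives its adjusted p ran up to 0.937. In Homeo cells S1pr1 had log2 intensities of 9.42, 9.20 and 9.20 in Foxp3+, against 9.33, 9.18 and 8.96 in Foxp3-, a difference of 0.11 ± 0.60 with overlapping arrays.

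S1pr1 in the DEC system gave a result that depended on which arrays were used. Its log2 intensity was 10.63, 10.01 and 9.73 in DEC CD25+, against 11.29, 11.28, 8.37 and 12.09 in DEC CD25-. Replicate 3 of DEC CD25-, the array with the large Gapdh 3′ excess, lay below all 3 CD25+ arrays, and the other 3 CD25- arrays lay above them. With all arrays the difference was -0.63 ± 0.57 (adjusted p = 0.603). Without that array it was -1.43 with an adjusted p of 0.0310, with array weights -1.32 with an adjusted p of 0.0357, and without both dim arrays -1.16 ± 0.27 with an adjusted p of 0.121. With the replicate number as a block it was -0.19 (adjusted p = 0.843), and the differences by number were -0.66, -1.27 and 1.36. The adjusted p ran from 0.0310 to 0.917 over the alternatives.

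**Figure D3:**
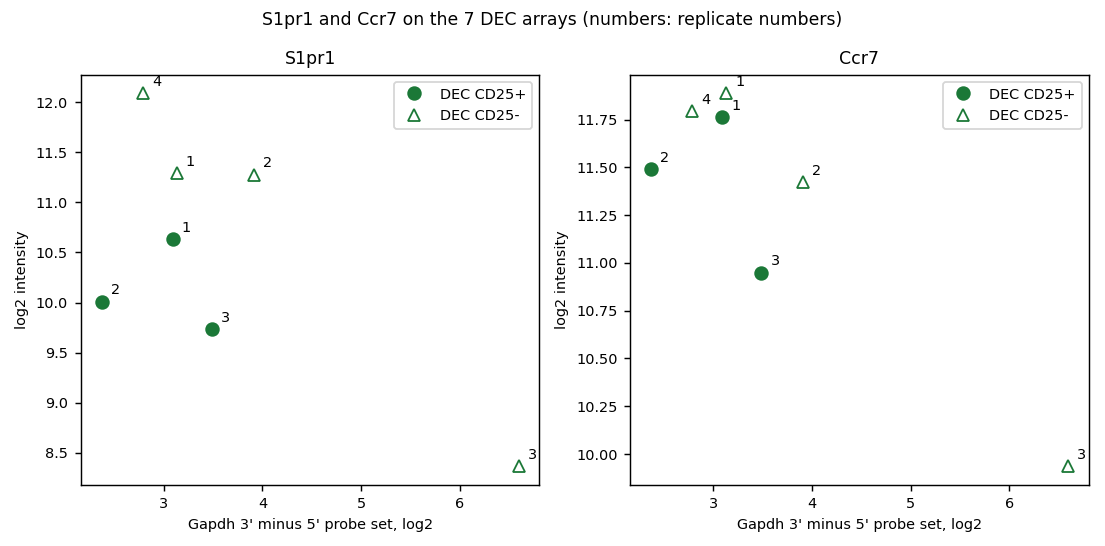
Log2 intensity of S1pr1 (left) and Ccr7 (right) on the 7 DEC arrays against the log2 excess of the 3′ over the 5′ Gapdh probe set, with filled circles for DEC CD25+, open triangles for DEC CD25- and replicate numbers beside the points. DEC CD25- replicate 3, at an excess of 6.59, has the lowest value of both genes (8.37 and 9.94), and the other 6 arrays lie at an excess of 2.37 to 3.92.

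Set against the other systems, S1pr1 was called higher in 2 of the 14 pairs, both of them DEC CD25- pairs: over LP Treg by 1.96 ± 0.64 (adjusted p = 0.0323, 24.8% of all called) and over Homeo Foxp3- by 1.60 ± 0.57 (adjusted p = 0.0393, 31.6%). Both were lost when single arrays were left out, the first with an adjusted p up to 0.164 (without LP Treg replicate 2) and the second up to 0.122 (without DEC CD25- replicate 4). Without both dim arrays 11 of 14 pairs were called higher, 7 of 7 with DEC CD25- (1.42 to 2.49) and 4 of 7 with DEC CD25+ (0.27 to 1.33 over the 7). Of all tests over the 14 pairs, 8.03% called a probe set higher in DEC cells with all arrays. Without both dim arrays this share was 12.6% (8.16% to 20.1% in single pairs). The S1pr1 group means were 10.76 ± 1.64 in DEC CD25- (SD, n = 4), 10.12 ± 0.46 in DEC CD25+ (n = 3), 9.86 in LN CD103-Klrg1-, 9.71 in LP Tconv, 9.46 in LN CD103+Klrg1-, 9.27 in Homeo Foxp3+, 9.24 in LN CD103+Klrg1+, 9.16 in Homeo Foxp3- and 8.79 in LP Treg. No step between neighbours in that order had an interval that left out 0.

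Klf2, the transcription factor upstream of S1pr1, moved over a narrower range. Its promoter is shown because Klf2 and Ccr7 had the most similar group means of any pair of members, and because factors of the MEF2 family and of its own family bind elements of this kind. The sequence is from RefSeq, build GRCm38.p6, chr8:72318912-72319061, plus strand, the 150 bases before the transcription start, with a MEF2 element and a KLF box in capitals.
Klf2: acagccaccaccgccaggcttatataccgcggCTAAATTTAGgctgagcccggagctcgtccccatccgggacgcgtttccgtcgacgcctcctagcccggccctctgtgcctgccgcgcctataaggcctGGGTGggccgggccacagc
The RefSeq table held promoters of 2 of the 5 genes, Klf2 and Cd44, each with 250 bases before and 50 after the start. The KLF box, searched as GGGTG or CACCC, was found 1 time for Klf2 and 0 times for Cd44, and in 57.5% of the 32851 promoters. The FOXO motif, searched as GTAAACA or TGTTTAC, was found in neither, and in 3.65% of all promoters. The MEF2 element, looked for after the sequence was seen, was found for Klf2 and not for Cd44, and in 3.19% of all promoters.

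Klf2 had log2 intensities of 8.87 and 8.72 in LP Treg, against 8.78 and 9.17 in LP Tconv, a difference of -0.18 ± 0.42. In Homeo Foxp3+ it had 9.62, 9.20 and 9.16, against 9.75, 9.14 and 8.96 in Homeo Foxp3-, a difference of 0.04 ± 0.34. In DEC CD25+ it had 9.24, 10.95 and 10.23, against 9.90, 10.22, 9.73 and 10.48 in DEC CD25-, a difference of 0.06 ± 0.32. In all 3 systems the partners overlapped, and the difference was smaller than its standard error.

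Among lymph node Treg cells the Klf2 values were 8.54 and 8.72 in CD103+Klrg1+, 8.62 and 9.34 in CD103+Klrg1- and 9.72 and 9.09 in CD103-Klrg1- cells, again on the log2 scale. CD103+Klrg1+ differed from CD103-Klrg1- cells by -0.78 ± 0.42 (adjusted p = 1.00 in limma), with no overlap of arrays. LP Treg differed from the same CD103-Klrg1- cells by -0.61 ± 0.42 (adjusted p = 0.563), also with no overlap. These comparisons share the CD103-Klrg1- arrays.

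Klf2 group means were highest in DEC CD25+ (10.14 ± 0.86, SD, n = 3) and DEC CD25- (10.08 ± 0.33, n = 4), followed by LN CD103-Klrg1- (9.41), Homeo Foxp3+ (9.32), Homeo Foxp3- (9.28), LN CD103+Klrg1- and LP Tconv (both 8.98), LP Treg (8.79) and LN CD103+Klrg1+ (8.63). No step between neighbours had an interval that left out 0. Of the 14 pairs of a DEC group with another system, 8 were called higher in DEC cells, 4 with each DEC group, against LP Treg, LP Tconv, LN CD103+Klrg1- and LN CD103+Klrg1+ cells. Their largest difference was 1.51 ± 0.39 for DEC CD25+ over LN CD103+Klrg1+ cells (adjusted p = 0.00982, 19.9% of all called). Over all probe sets and the 14 pairs 8.03% were called higher in DEC cells, and 12.6% without both dim arrays. Without both dim arrays 6 of the 14 were called, and each of the 8 calls was lost without 1 array or another of its pair, with adjusted p-values up to 0.0864 for DEC CD25+ over LN CD103+Klrg1+ cells (without LN CD103+Klrg1+ replicate 1).

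Cd69, the activation antigen that opposes S1pr1 at the cell surface, was high in cells of the gut and in the DEC cells. Its log2 intensity was 13.01 and 12.41 in LP Treg, against 13.01 and 12.83 in LP Tconv, and the difference of -0.21 ± 0.51 was within the spread. Treg and partner cells of the lamina propria thus overlapped. The lymph node Treg subsets had 11.20 and 11.04 in CD103+Klrg1+, 11.48 and 11.28 in CD103+Klrg1- and 11.70 and 11.08 in CD103-Klrg1- cells, with no difference beyond 0.27 between their means.

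Both LP Treg arrays were above all 6 lymph node arrays in Cd69. LP Treg differed from CD103+Klrg1+ cells by 1.59 ± 0.51, 3.01 times higher (adjusted p = 0.143), from CD103+Klrg1- cells by 1.33 ± 0.51 (adjusted p = 0.204) and from CD103-Klrg1- cells by 1.32 ± 0.51 (adjusted p = 0.174). None passed in limma with all 23 arrays. With the fit on the arrays of both groups alone, the first had an adjusted p of 0.0459 and the second of 0.0398, and over the alternatives they ran up to 0.739 and 0.705.

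In the Homeo system the Cd69 arrays split by number more than by sort. Homeo Foxp3+ cells had log2 intensities of 11.40, 12.46 and 10.94, against 10.93, 12.38 and 10.37 in Homeo Foxp3- cells. Replicate 2 was the highest in both groups. The differences by number were 0.47, 0.08 and 0.57, and the mean difference was 0.37 ± 0.42.

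Rgs1, an inhibitor of chemokine receptor signalling, and Nr4a1, an immediate early gene of T cell receptor signalling, were also highest on replicate 2. Rgs1 had 10.59, 10.82 and 9.89 in Homeo Foxp3+, against 9.63, 11.01 and 8.32 in Homeo Foxp3-, and Nr4a1 had 9.61, 10.73 and 9.48 in Homeo Foxp3+, against 8.83, 10.45 and 8.86 in Homeo Foxp3-. Fos, a subunit of the AP-1 factor, was at 13.19, 13.69 and 9.82 in Homeo Foxp3+, against 13.13, 13.70 and 8.42 in Homeo Foxp3-, so it was low on replicate 3 alone. The mean of the myeloid and dendritic list was likewise highest on replicate 2, at 7.02, 8.43 and 7.85 in Homeo Foxp3+, against 7.36, 8.77 and 7.90 in Homeo Foxp3-. The part of these differences between replicates in the Cd69 values was not tested.

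**Figure D4:**
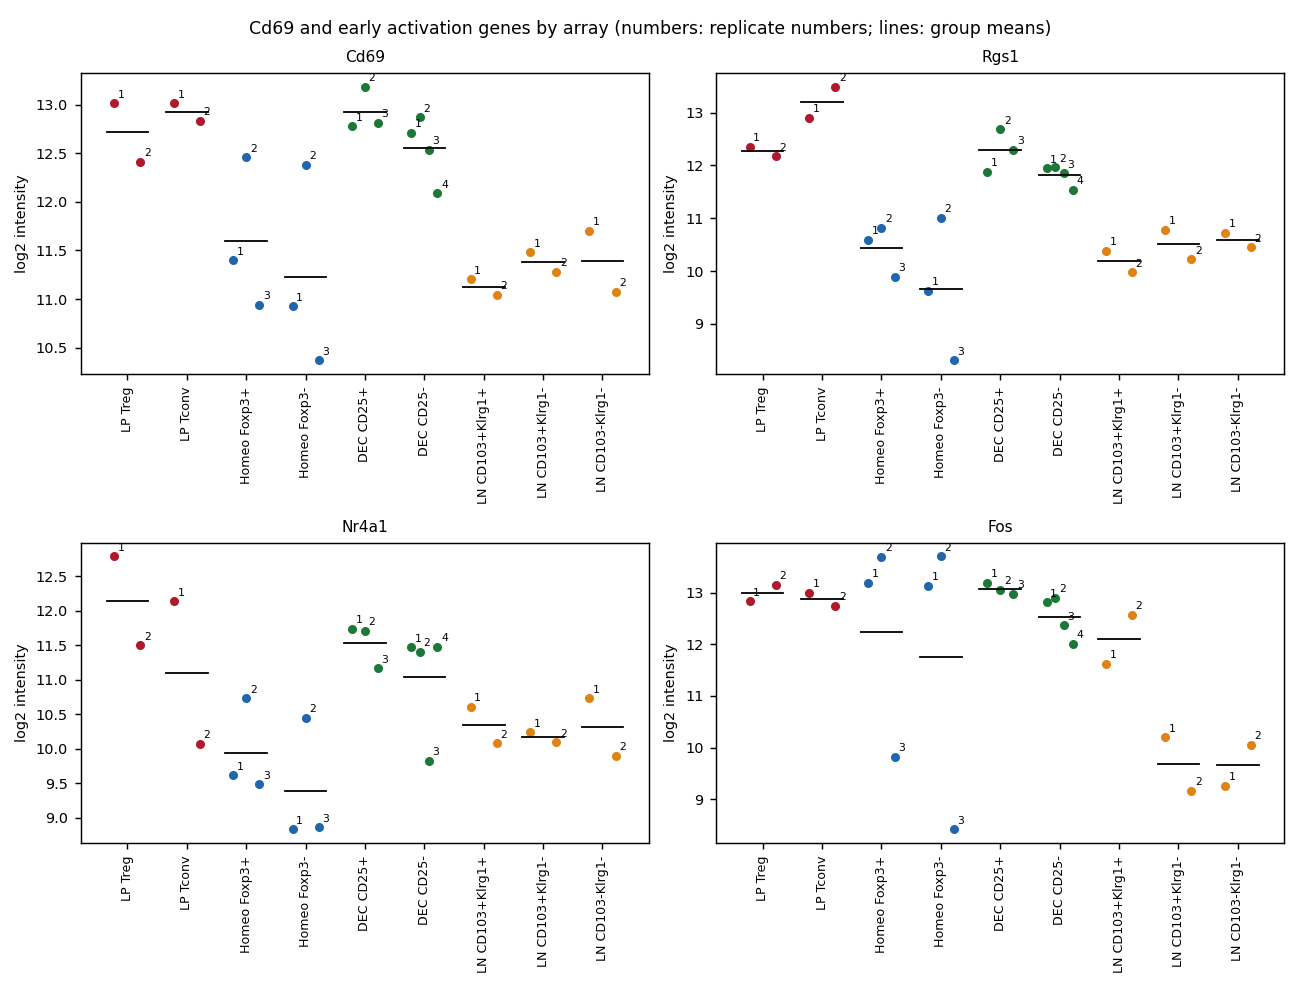
Log2 intensity of Cd69 and of 3 genes that are induced or read out early in activation (Rgs1, Nr4a1, Fos) on the 23 arrays, with replicate numbers and group means as lines. Cd69 reached 12.46 and 12.38 on replicate 2 of Homeo Foxp3+ and Foxp3- cells, while the other 4 Homeo arrays lay between 10.37 and 11.40.

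In the DEC system Cd69 had log2 intensities of 12.78, 13.18 and 12.81 in CD25+ cells, against 12.71, 12.87, 12.54 and 12.09 in CD25- cells. The difference was 0.37 ± 0.39. The group means were 12.92 ± 0.22 in DEC CD25+ (SD, n = 3) and 12.92 ± 0.13 in LP Tconv (n = 2), then 12.71 in LP Treg, 12.55 in DEC CD25-, 11.60 in Homeo Foxp3+, 11.39 in LN CD103-Klrg1-, 11.38 in LN CD103+Klrg1-, 11.23 in Homeo Foxp3- and 11.12 in LN CD103+Klrg1+. The 1 step between neighbours whose interval left out 0 was that of DEC CD25- over Homeo Foxp3+ (0.95, 0.13 to 1.77). That step did not pass the test over all probe sets (adjusted p = 0.0697), and the arrays overlapped across it: replicate 2 of Homeo Foxp3+ (12.46) and of Homeo Foxp3- (12.38) lay above DEC CD25- replicate 4 (12.09).

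DEC cells were called higher than those of another system in Cd69 in 7 of 14 pairs, 5 with DEC CD25+ and 2 with DEC CD25-, where 8.03% of all probe sets were called higher in DEC cells. The same counts came out without both dim arrays, where 12.6% were. With each array of a pair left out in turn, 1 of the 7, DEC CD25+ over Homeo Foxp3-, remained called every time. Among the other 6, the adjusted p reached 0.265 for DEC CD25+ over LN CD103-Klrg1- cells (without LN CD103-Klrg1- replicate 2) and 0.127 for DEC CD25+ over Homeo Foxp3+ (without Homeo Foxp3+ replicate 3). The largest difference was 1.80 ± 0.46 for DEC CD25+ over LN CD103+Klrg1+ cells (adjusted p = 0.0105). LP Tconv cells exceeded Homeo Foxp3- cells by 1.70 ± 0.46 (adjusted p = 0.0193, 16.4% of all called) and LN CD103+Klrg1+ cells by 1.80 ± 0.51 (adjusted p = 0.0459). LP Treg cells exceeded Homeo Foxp3- cells by 1.49 ± 0.46 (adjusted p = 0.0360). These 3 calls were lost without single arrays, with adjusted p-values up to 0.0858 (without LP Tconv replicate 2), 0.238 (without LN CD103+Klrg1+ replicate 2) and 0.335 (without LP Treg replicate 1).

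Cd44, the hyaluronan receptor of antigen-experienced cells, was the member that rose in CD103+Klrg1+ against CD103-Klrg1- lymph node Treg cells. Its brightest probe set, 1423760_at, had log2 intensities of 13.08 and 12.76 in CD103+Klrg1+, 12.27 and 12.24 in CD103+Klrg1- and 11.49 and 10.99 in CD103-Klrg1- cells. The 3 subsets did not overlap. The second probe set, 1434376_at, had 11.31 and 11.64, then 10.75 and 10.43, then 9.58 and 10.02 in the same subsets, also without overlap.

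In LN CD103+Klrg1+ over LN CD103-Klrg1- cells, Cd44 rose by 1.67 ± 0.34 on 1423760_at (3.19-fold, adjusted p = 0.0121) and by 1.67 ± 0.36 on 1434376_at (adjusted p = 0.0170). The third probe set, 1452483_a_at, gave 1.26 ± 0.43 (adjusted p = 0.285). Its log2 intensities were 7.51 and 6.83 in CD103+Klrg1+, 6.02 and 6.30 in CD103+Klrg1- and 6.04 and 5.79 in CD103-Klrg1- cells, the last 2 subsets averaging below the filter value of 6.27. Both calls rest on few pools. On 1423760_at the adjusted p was 0.231 without CD103-Klrg1- replicate 2, 0.186 without CD103+Klrg1+ replicate 1 and 0.0548 with the arrays of both groups alone, and on 1434376_at it was 0.0666 to 0.237 without any 1 of the 4 arrays.

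The steps of Cd44 between these subsets were smaller. CD103+Klrg1- exceeded CD103-Klrg1- cells by 1.01 ± 0.34 on 1423760_at and 0.79 ± 0.36 on 1434376_at, and CD103+Klrg1+ exceeded CD103+Klrg1- cells by 0.67 ± 0.34 and 0.89 ± 0.36, all with an adjusted p of 1.00. With array weights the first of these had an adjusted p of 0.0205, the lowest over its alternatives.

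Lamina propria Treg cells also had more Cd44 than the CD103-Klrg1- lymph node cells. On 1423760_at the log2 intensity was 12.75 and 12.62 in LP Treg, against 11.49 and 10.99 in LN CD103-Klrg1- cells. It rose by 1.44 ± 0.34 (2.71-fold, adjusted p = 0.0182). The other probe sets gave 1.04 ± 0.36 on 1434376_at (adjusted p = 0.121) and 1.32 ± 0.43 on 1452483_a_at (adjusted p = 0.0977). LP Treg arrays lay above the LN CD103-Klrg1- arrays on all 3, but separation was not particular to Cd44 here. All 7 tested member probe sets were separated in 1 direction or the other in this comparison. The share of all probe sets so separated was not counted. On 1452483_a_at the LN CD103-Klrg1- mean (5.92) was below the filter value of 6.27. The call was lost without LP Treg replicate 1 (adjusted p = 0.162), LP Treg replicate 2 (0.0687) or LN CD103-Klrg1- replicate 2 (0.228). This comparison shares the CD103-Klrg1- arrays with the lymph node one above.

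Against LN CD103+Klrg1- cells LP Treg gave 0.43 ± 0.34, 0.25 ± 0.36 and 1.07 ± 0.43 on the 3 Cd44 probe sets in the same order, and against LN CD103+Klrg1+ cells -0.23 ± 0.34, -0.63 ± 0.36 and 0.06 ± 0.43. Against their own partner, LP Tconv with log2 intensities of 12.81 and 13.28 on 1423760_at, LP Treg differed by -0.36 ± 0.34 on that probe set, and by 0.03 and -0.14 on the others. LP Tconv exceeded LN CD103-Klrg1- cells by 1.80 ± 0.34 on 1423760_at (adjusted p = 0.00319, 5.41% of all called), with an adjusted p of 0.0728 without LN CD103-Klrg1- replicate 2.

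B cell transcripts moved with the split between gut and lymph node, and Cd44 and Ccr7 are also expressed by B cells. Ms4a1 (CD20) had a mean log2 intensity of 6.23 in LP Treg, against 9.10 to 10.36 in the lymph node subsets, and was called lower in LP Treg than in CD103+Klrg1+ (-4.13), CD103+Klrg1- (-2.86) and CD103-Klrg1- cells (-3.40). Cr2, a complement receptor of B cells, was called lower in 2 of these comparisons, with a mean log2 intensity of 6.07 in LP Treg, against 7.15 in CD103+Klrg1+ and 6.85 in CD103-Klrg1- cells. It passed the filter only through the lymph node groups, where it was high, so these calls carry no weight. Cd79a, a defining B cell gene, averaged at most 6.07 in any of the 9 groups, below the filter value. Over the B cell list, 4 of 5 genes were on the array and 3 were tested, and the mean level of the list was 6.29 to 6.33 on the LP Treg arrays, 5.89 to 5.97 on the LP Tconv arrays and 7.05 to 8.37 on the lymph node arrays. Endothelial, epithelial, erythroid and myeloid lists gave 0 calls in limma in any of the 9 comparisons, and of 6 T cell markers Thy1 was called 1 time, lower in LP Treg than in LP Tconv (-1.86, adjusted p = 0.00351). Klrd1, a natural killer receptor, was lower in LP Treg than in LN CD103+Klrg1+ cells by 3.47 (adjusted p = 0.0133). The mean of the CD8 T and NK list was 5.75 to 6.04 on the LP Treg arrays, against 6.45 to 6.66 on the LP Tconv arrays and 6.55 to 7.62 on the lymph node arrays. The part of such cells in the Cd44 and Ccr7 differences was not tested.

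In the Homeo system Cd44 was lower in Foxp3+ cells on every tested probe set without passing the test. On 1434376_at the log2 intensity was 11.97, 11.57 and 11.84 in Homeo Foxp3+, against 12.65, 12.09 and 12.25 in Homeo Foxp3-. The groups did not overlap on any of the 3 probe sets, which measure 1 gene on the same arrays. The share of all probe sets without overlap was not counted here. The differences were -0.29 ± 0.28 on 1423760_at, -0.54 ± 0.29 on 1434376_at and -0.57 ± 0.35 on 1452483_a_at, all with an adjusted p of 1.00. These standard errors and adjusted p-values do not use the replicate numbers. By number the differences were -0.26, -0.36 and -0.25 on 1423760_at and -0.67, -0.52 and -0.41 on 1434376_at. On 1452483_a_at they were -0.90, -0.53 and -0.29. With the number as a block, none of the 3 was called in limma.

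In the DEC system the groups overlapped on all 3 Cd44 probe sets, while 1434376_at was lower in CD25+ cells in 3 of 3 same-numbered pairs (-0.68, -0.19 and -0.57). On 1434376_at the log2 intensity was 10.78, 10.40 and 9.76 in DEC CD25+, against 11.47, 10.59, 10.33 and 10.75 in DEC CD25-. The differences were -0.05 ± 0.26 on 1423760_at, -0.47 ± 0.27 on 1434376_at (adjusted p = 0.409) and -0.14 ± 0.33 on 1452483_a_at. Without both dim arrays they were -0.61, -0.71 and -0.60, with adjusted p-values of 0.385, 0.728 and 0.861.

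The 3 Cd44 probe sets did not rank the systems alike. Over the 9 group means 1423760_at had a Pearson correlation of 0.39 with 1434376_at and 0.48 with 1452483_a_at, and the last 2 had one of 0.78; these are descriptions over 9 points that share arrays. On 1423760_at the log2 means ran from LP Tconv (13.05), LN CD103+Klrg1+ (12.92), LP Treg (12.68), Homeo Foxp3- (12.31), LN CD103+Klrg1- (12.25), DEC CD25- (12.19), DEC CD25+ (12.14) and Homeo Foxp3+ (12.02) to LN CD103-Klrg1- (11.24). On 1434376_at they ran from Homeo Foxp3- (12.33), Homeo Foxp3+ (11.79), LN CD103+Klrg1+ (11.47), LP Treg (10.84), LP Tconv (10.80), DEC CD25- (10.79), LN CD103+Klrg1- (10.59) and DEC CD25+ (10.31) to LN CD103-Klrg1- (9.80). On 1452483_a_at they ran from Homeo Foxp3- (8.12) and Homeo Foxp3+ (7.55) to LN CD103+Klrg1- (6.16) and LN CD103-Klrg1- (5.92). The lowest group was LN CD103-Klrg1- on all 3 tested probe sets. The 2 other steps between neighbours whose interval left out 0 were Homeo Foxp3+ over LN CD103-Klrg1- on 1423760_at (0.78, 0.12 to 1.44) and LN CD103+Klrg1+ over LN CD103+Klrg1- on 1452483_a_at (1.01, 0.10 to 1.92).

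LP Tconv over Homeo Foxp3+ cells, where 20.7% of all probe sets were called, shows the disagreement. Cd44 was called higher in LP Tconv on 1423760_at (1.03 ± 0.31, adjusted p = 0.0280) and lower on 1434376_at (-0.99 ± 0.33, adjusted p = 0.0410). Both calls were lost without single arrays, with adjusted p-values up to 0.236 and 0.369 without LP Tconv replicate 2. Between LP Tconv and Homeo Foxp3- cells, 1434376_at was lower by 1.52 ± 0.33 in LP Tconv (adjusted p = 0.00442, and 0.0911 without LP Tconv replicate 2) while 1423760_at gave 0.74 ± 0.31. Cd44 is a gene with many splice forms. Where these probe sets lie on the transcript was not analysed here, and the reason for the disagreement was not tested.

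Homeo Foxp3+ over LN CD103-Klrg1- cells, where 13.8% of all probe sets were called, rose on 1434376_at (1.99 ± 0.33, adjusted p = 0.000550) and on 1452483_a_at (1.63 ± 0.40, adjusted p = 0.0101, and 0.115 without LN CD103-Klrg1- replicate 2), while 1423760_at gave 0.78 ± 0.31 (adjusted p = 0.112). Homeo Foxp3+ over DEC CD25+ cells, where 26.7% were called, rose on 1434376_at alone (1.48 ± 0.29, adjusted p = 0.00134). DEC CD25+ over LN CD103-Klrg1- cells, where 16.5% were called, rose on 1452483_a_at (1.36 ± 0.40, adjusted p = 0.0239, and 0.176 without LN CD103-Klrg1- replicate 2). Myeloid transcripts also moved with the Homeo system: Lyz2 had a mean log2 intensity of 10.58 in Homeo Foxp3+ and 11.24 in Homeo Foxp3-, against 6.88 to 8.80 in the other 7 groups. The mean of the myeloid and dendritic list was 7.77 in Homeo Foxp3+ and 8.01 in Homeo Foxp3-, against 6.08 to 7.53 in the other 7 groups. The part of such cells in the Homeo values of Cd44, which myeloid cells express too, was not tested.

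**Figure D5:**
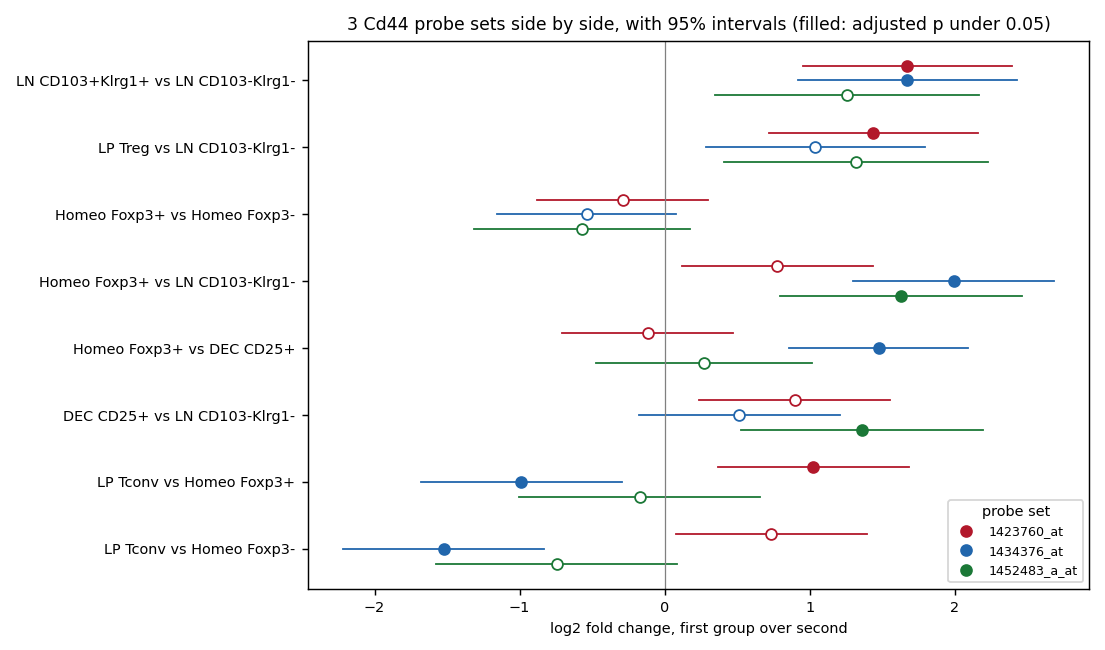
Log2 fold changes, the first-named group over the second, with 95% intervals for the 3 tested Cd44 probe sets in 8 comparisons; filled points passed an adjusted p of 0.05 in limma. In LN CD103+Klrg1+ over LN CD103-Klrg1- cells all 3 lie between 1.26 and 1.67, while in LP Tconv over Homeo Foxp3+ cells 1423760_at lies at 1.03 and 1434376_at at -0.99.

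The members were also set against each other over the 9 group means, as descriptions with no test, since all points share arrays. Ccr7 and Klf2 had a Pearson correlation of 0.94, Ccr7 and S1pr1 of 0.86 and S1pr1 and Klf2 of 0.81. Without the DEC groups, over 7 group means, these were 0.77, 0.68 and 0.43. Cd44 (1423760_at) and Klf2 had -0.51 over 9 and -0.80 over 7 group means, and Cd69 and S1pr1 had 0.37 over 9 and -0.10 over 7. The other tested Cd44 probe sets, which rank the groups differently, were not correlated with Klf2. On 1434376_at the highest Cd44 mean (12.33, Homeo Foxp3-) came with a Klf2 mean of 9.28. The lowest (9.80, LN CD103-Klrg1-) came with a Klf2 mean of 9.41.

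The genes with the group means most like those of a member, over 12516 genes with 1 probe set each, were Wdr46 (0.97), Nsa2 (0.95) and Bzw2 (0.95) for Ccr7, and Cul5 (0.97), Them4 (0.95) and Mybbp1a (0.94) for S1pr1. For Klf2 they were Eef1d, Klf13 and Nsa2 (0.95 each), for Cd44 Emc3 (0.92), Cpd (0.91) and Myo1f (0.90), and for Cd69 Dedd2 (0.98), Ccdc92b (0.97) and Mrpl9 (0.97). These are Pearson correlations over 9 group means.

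The lists of genes around the members gave 8 calls in 477 gene tests over the 9 comparisons (1.68%), near the 1.85% of all probe sets. Of the other sphingosine-1-phosphate receptors and their coupling proteins, 9 of 10 were on the array and tested, and over the 9 comparisons limma called 0 higher and 1 lower. That was S1pr5, an egress receptor of natural killer and effector cells, with log2 intensities of 4.56 to 5.42 in Homeo Foxp3+, against 6.35 to 6.93 in Homeo Foxp3- cells. It passed the filter only through Homeo Foxp3-, the group where it was high, so its call carries no weight. The NK receptor Klrd1 was called lower in Homeo Foxp3+ than in Homeo Foxp3- cells, by 2.53 (adjusted p = 0.0397). Over the 9 comparisons the median of the list lay between -0.02 and 0.16, and that of all probe sets between -0.02 and 0.17.

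Of the 7 genes that make, export or degrade sphingosine-1-phosphate, 4 were tested and 0 called, as for the 9 Klf2 regulators and relatives and for 7 of 8 Cd44 partners and hyaluronan genes that were tested. Mef2d, a factor of the MEF2 family, had mean log2 intensities of 11.18 in DEC CD25+ and 10.79 in DEC CD25-, against 9.28 to 10.17 in the other groups. Its Pearson correlation with Klf2 was 0.77 over the 9 group means. Both genes had their highest means in the DEC groups, and the correlation without those groups was not calculated. Outside them, the lowest Klf2 mean (8.63, LN CD103+Klrg1+) came with a Mef2d mean of 10.06. The lowest Mef2d mean (9.28, LP Treg) came with a Klf2 mean of 8.79. A part of Mef2d in the Klf2 level was not tested. The Ccr7 ligands Ccl19 and Ccl21a were named alone by no probe set and were not analysed here.

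Of 16 lymph node entry and motility genes, 15 were tested, with 3 calls higher and 1 lower over the 9 comparisons. Gpr183, the oxysterol receptor that positions lymphocytes at follicle borders, gave all 3 higher ones. It rose in LP Treg against LN CD103-Klrg1- cells by 2.49 (adjusted p = 0.00565), against CD103+Klrg1- cells by 2.64 (adjusted p = 0.00606) and against CD103+Klrg1+ cells by 2.07 (adjusted p = 0.0334). Rasgrp2, an activator of the integrin switch Rap1, fell in LP Treg against LP Tconv by 1.33 ± 0.31 (adjusted p = 0.0248). The median of the list lay between -0.21 and 0.25.

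The 9 early activation genes next to Cd69 gave 0 calls higher and 3 lower. Egr2, an inhibitory factor downstream of the T cell receptor, fell in Homeo Foxp3+ against Homeo Foxp3- cells by 2.15 ± 0.31 (adjusted p = 0.000721), while Cd69 differed there by 0.37 ± 0.42. Tnf, an inflammatory cytokine, fell in LP Treg against LN CD103-Klrg1- cells by 1.22 (adjusted p = 0.0357) and against LN CD103+Klrg1- cells by 1.36 (adjusted p = 0.0274), where Cd69 gave 1.32 and 1.33. Rgs1, from the list of coupling proteins, followed the Cd69 group means with a Pearson correlation of 0.96 over 9 groups, from 13.20 in LP Tconv to 9.65 in Homeo Foxp3- on the log2 scale.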

How the data were processed

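RNA of sorted T cell pools was isolated with Trizol, amplified in 2 rounds and hybridized to Affymetrix M430v2 arrays, per the labels' protocols. The authors deposited intensity values of 45101 probe sets, preprocessed with RMA in GenePattern per the series' design text; versions are not given in the sources used here. No value column was left unmapped (0), and no 2 arrays were identical (0 pairs).

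Here log2 was taken of the deposited intensity values. After 64 control probe sets were left out, 26492 of 45037 had a group mean above the median of the table (6.27) and were tested with limma 3.58.1 in R 4.3.3 (lmFit, eBayes, 1 mean per group, all 23 arrays, 14 residual degrees of freedom, Benjamini-Hochberg, threshold 0.05). Standard errors come from this fit. Tables were made with pandas 2.3.3, numpy 2.4.6 and scipy 1.17.1 in Python 3.11.15, and figures with matplotlib 3.10.9. The number of arrays limits the precision. The fit was tested on simulated data.

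The members and lists were chosen with earlier results of these data known. Named genes were all member probe sets, the 3 genes most alike each member, and up to 4 called genes of each list, by smallest adjusted p; Mef2d, Rgs1, Nr4a1 and Fos were added after their values were seen. A gene with several probe sets is represented in lists by the brightest. Comparisons across systems beyond the 9 were chosen after seeing the data.

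Same-numbered arrays deviated together in Homeo cells (correlations of residuals 0.58, 0.54 and 0.53) and DEC cells (0.40, 0.48 and 0.39), which were read as paired; with 2 numbers they were 0.04 in the lamina propria, 0.41 to 0.68 among lymph node cells and -0.16 to -0.03 between both sites. Alternatives were quantile and cyclic loess normalization, no filter, 1 probe set or the mean per gene, array weights, the compared groups alone, a replicate block and leaving out arrays.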

Additional observations from a re-analysis of the deposited data

How the results depend on the processing

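Of 688 recalculated single values, 602 kept their direction and their side of the threshold, 40 lost a call, 44 gained one and 2 reversed. Both reversed when the Cd44 probe sets were averaged: LP Tconv over Homeo Foxp3- was -0.44 and over Homeo Foxp3+ -0.079, where 1423760_at alone is positive.

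Array weights reweighted all 23 arrays, from 0.135 on DEC CD25- replicate 3 to 3.50 on Homeo Foxp3+ replicate 3. With them there was 1 member call in DEC CD25+ over DEC CD25-, 1 in LN CD103+Klrg1- over CD103-Klrg1-, 4 in CD103+Klrg1+ over CD103-Klrg1- (2 as reported), 5 in LP Treg over LN CD103-Klrg1- (1 as reported) and 1 in LP Treg over LN CD103+Klrg1-. In each of these comparisons the count over all probe sets also rose with array weights, as given below. Without both dim arrays, a choice made after seeing the data, there was 1 in LP Treg over LP Tconv and 4 in LP Treg over LN CD103-Klrg1-. The counts over all probe sets rose in both of these as well. With only the arrays compared there was 1 in CD103+Klrg1+ over CD103-Klrg1-, and for LP Treg 2 over CD103-Klrg1-, 2 over CD103+Klrg1- and 1 over CD103+Klrg1+. For LP Treg over CD103+Klrg1- the count over all probe sets also rose in that setting. With 1 probe set or the mean per gene, CD103+Klrg1+ over CD103-Klrg1- kept 1 call, as Cd44 is then counted once. Leaving out 1 array gave 0 to 1 call in DEC CD25+ over DEC CD25-, in CD103+Klrg1+ over CD103-Klrg1- and in LP Treg over LN CD103-Klrg1-, and a lone remaining array is then assumed to vary like the other groups.

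With the replicate number as a block no member call changed. The block called 617 probe sets in LP Treg over LP Tconv, 336 in Homeo, 160 in DEC, 17 in CD103+Klrg1- over CD103-Klrg1-, 97 in CD103+Klrg1+ over CD103+Klrg1-, 459 in CD103+Klrg1+ over CD103-Klrg1-, and for LP Treg 1245 over CD103-Klrg1-, 752 over CD103+Klrg1- and 582 over CD103+Klrg1+ (as reported 582, 353, 117, 18, 105, 470, 1329, 841 and 606). Crossed numbers called 748 in LP Treg over LN CD103+Klrg1-.

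Counts of all probe sets called, in the same order of comparisons, were 374, 1591, 343, 143, 423, 1092, 3534, 3152 and 1698 with array weights. Without both dim arrays they were 958 in LP Treg over LP Tconv, 619 in Homeo, 38, 197 and 708 in the lymph node comparisons, and 2661, 1831 and 1243 for LP Treg over lymph node cells. With only the arrays compared they were 3 for LP, 932 for Homeo, 0 for DEC (with all arrays 4170 had an unadjusted p under 0.05 in limma), 11 in CD103+Klrg1- over CD103-Klrg1-, 54 in CD103+Klrg1+ over CD103+Klrg1- and 1663 in LP Treg over CD103+Klrg1-. With 1 probe set per gene, which tests 12516 genes, they were 338, 220, 62, 263, 570, 329 and 257 for LP, Homeo, DEC, CD103+Klrg1+ over CD103-Klrg1- and LP Treg over CD103-Klrg1-, CD103+Klrg1- and CD103+Klrg1+, and with the mean 76 for DEC and 302, 563, 310 and 261 for the last 4. Cyclic loess gave 28 in CD103+Klrg1- over CD103-Klrg1-. Leaving out 1 array gave 277 to 821 for LP, 206 to 282 for Homeo, 19 to 1430 for DEC, 0 to 9, 36 to 65 and 198 to 334 in the lymph node comparisons, and 372 to 976, 154 to 582 and 173 to 471 for LP Treg over lymph node cells. The highest DEC count came without CD25- replicate 1. The cause of these shifts was not tested.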
